A study of Mus musculus with 2 samples.

Results

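The nuclear-encoded subunits of respiratory complexes II to V were compared between 2 liver RNA libraries of mice, 1 from animals with intact Rcrin and 1 from Rcrin conditional knockouts. Members were the protein-coding genes of GENCODE mouse M21 whose symbol is Sdha to Sdhd or Cyc1 or starts with Uqcr, Cox4 to Cox8 or Atp5. The rule gave 49 of the 55421 gene rows in the count files, under 48 symbols, because Atp5o stands on 2 rows. Of these, 42 had a mean of at least 50 counts over both libraries and were compared: 4 of complex II, 9 of complex III, 12 of complex IV and 17 of complex V. The other 7 are accounted for below.

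The WT library came from Rcrin flox mice and the other from Rcrin conditional knockout mice, so floxed alleles without the deletion are the reference. Both carry a label of 8 weeks, and the labels give liver as tissue and liver cells as cell type. No source used here states the promoter that drives Cre, the cells in which the gene was deleted or how many mice each library holds. The level of Rcrin was not analysed here.

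The respiratory chain of the inner mitochondrial membrane passes electrons from nutrients to oxygen and stores the energy as a proton gradient. Complex II (succinate dehydrogenase) feeds electrons from the citric acid cycle into ubiquinone, complex III (cytochrome bc1) passes them to cytochrome c, complex IV (cytochrome c oxidase) hands them to oxygen, and complex V (ATP synthase) spends the gradient to make ATP. Complexes III to V combine subunits made in the cytosol, whose genes lie in the nucleus, with a few made from mitochondrial DNA, whereas all subunits of complex II are nuclear-encoded. Hepatocytes are rich in mitochondria and use this chain for urea, glucose and bile acid synthesis.

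The libraries held 65121596 counts (WT) and 63587567 counts (knockout). Each genotype is represented by 1 library, so variation among mice is unknown and nothing was tested. Each interval below is an exact 95% interval for counting error alone, and ratios are of the knockout over the WT library after TMM scaling. Among all 12064 genes compared, 1019 stood 2-fold or more above their WT level (8.45%) and 1039 as far below (8.61%), and the median log2 ratio was -0.01. All 8 hepatocyte markers chosen to check the tissue, among them Alb and Ttr, were counted in both libraries. Their summed level was 96225 CPM (counts scaled to a common library size) in WT and 142814 in the knockout, and that of 6 macrophage markers 634 and 495. Neither list moved wholly one way. Alb, which held most of the hepatocyte sum, and Cps1 each had a log2 ratio of 0.83. Ttr was at 0.73, Cyp2e1 at 0.50, Serpina1c at 0.43, Apoa1 at 0.01, Tat at -0.15 and Fgb at -0.81. Among macrophage markers only Vsig4 stood higher (1.02). Clec4f was at -0.23, Adgre1 at -0.32, Marco at -0.49, Csf1r at -0.70 and Cd68 at -1.30. The part of such shifts in the results below was not tested. No count of the 6 striated muscle markers, such as Ckm and Myh6, was above 8.

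Promoters of a few members are shown because the transcription factors NRF1, GABPA (of the ETS family), YY1 and the estrogen-related receptor ESRRA are known to act on respiratory genes. RefSeq windows of 300 bases on GRCm38.p6, from 250 bases before the start of transcription to 50 after it, matched 36 of the 48 symbols. On either strand, the ETS letters CCGGAAG were found at 12 of these 36 members (33.3%) and at 9.93% of all 27025 genes with a window. The NRF1 palindrome, seen in capitals near the left end of the Cox6a1 stretch below, was found at 4 members (11.1%) and 1.07% of genes, the YY1 letters AAGATGGC at 3 members (8.33%) and 3.19% of genes, and the receptor letters TCAAGGTCA at 2 members (5.56%) and 0.466% of genes. The 27025 genes were taken whether or not they were expressed in these libraries, and shares matched for expression were not computed. These motifs do not overlap one another in the stretches printed. The 180 bases before the start follow for the member that stood highest in the knockout library, for 2 other members near or above 2-fold, and for the lowest member. They are given 5′ to 3′ on the gene's strand, with matches in capitals (CTTCCGG is the ETS motif on the opposite strand). Uqcr10 lies at chr11:4704345-4704524, Uqcrh at chr4:116075071-116075250, Atp5h at chr11:115419920-115420099 and Cox6a1 at chr5:115348959-115349138, all on the minus strand.
Uqcr10: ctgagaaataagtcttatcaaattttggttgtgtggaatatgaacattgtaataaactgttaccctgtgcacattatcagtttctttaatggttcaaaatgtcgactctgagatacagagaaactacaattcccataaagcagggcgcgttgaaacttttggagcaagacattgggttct
Uqcrh: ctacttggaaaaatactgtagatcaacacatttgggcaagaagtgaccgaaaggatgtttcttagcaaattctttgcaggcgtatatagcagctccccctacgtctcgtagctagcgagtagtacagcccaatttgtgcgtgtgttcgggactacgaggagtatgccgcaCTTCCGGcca
Atp5h: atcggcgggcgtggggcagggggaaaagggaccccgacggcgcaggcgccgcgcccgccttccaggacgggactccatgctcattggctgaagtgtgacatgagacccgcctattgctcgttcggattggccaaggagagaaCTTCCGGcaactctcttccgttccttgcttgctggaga
Cox6a1: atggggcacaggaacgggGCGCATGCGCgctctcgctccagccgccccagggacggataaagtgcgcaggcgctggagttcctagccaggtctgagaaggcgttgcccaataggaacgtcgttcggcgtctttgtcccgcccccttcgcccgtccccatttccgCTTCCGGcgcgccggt

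From the RefSeq start, the ETS match begins 10 bases upstream for Uqcrh, 38 for Atp5h and 16 for Cox6a1. The NRF1 match begins 162 bases upstream for Cox6a1. GENCODE starts differ: its minus-strand genes Atp5h and Cox6a1 reach to positions 115419962 and 115348981. The ETS matches of these genes thus lie inside the GENCODE gene. None of the 4 motifs was found in the window of Uqcr10, which says only that these letters are not there. Among compared members with a window, the 12 with the ETS letters had a median log2 ratio of 0.57 (range -1.18 to 1.12) and the 21 without them one of 0.42 (range -0.15 to 4.46). The ranges of the groups overlap.

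Most subunit mRNAs stood slightly higher in the knockout library. The median log2 ratio over the 42 members compared was 0.51, a ratio of 1.42, and 37 members were above 0, as were 49.2% of all genes compared. Past 2-fold were 4 members above (Uqcr10, Uqcrh, Uqcrb and Cox7b) and 1 below (Cox6a1), and 37 lay between. Against the 8.45% of all genes that were higher by this limit and the 8.61% that were lower of the same table, a count of 4 of 42 is near the background and 1 of 42 is below it. Among the 3246 genes that averaged 2000 or more counts, a level that 40 of the 42 members reach, 6.35% were higher, 6.32% lower and 50.1% above 0. At a limit of 1.5-fold, 20 members were higher and 1 lower, where 19.0% of all genes were higher and 18.8% lower (37.8% in either direction). Counting intervals lay wholly above 0 for 36 members, wholly below for 4, and held 0 for Sdha and Cox5a. Such intervals are narrow at the depth of most members. The share of all genes whose interval excluded 0 was not computed, so these counts are no result about the members. Together the 49 rows held 1.17% of all counts in WT and 1.46% in the knockout (Wilson 95% intervals 1.168 to 1.173 and 1.461 to 1.466). Because this is bulk tissue, more mRNA per hepatocyte and a larger share of hepatocytes cannot be told apart.

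**Figure D1:**
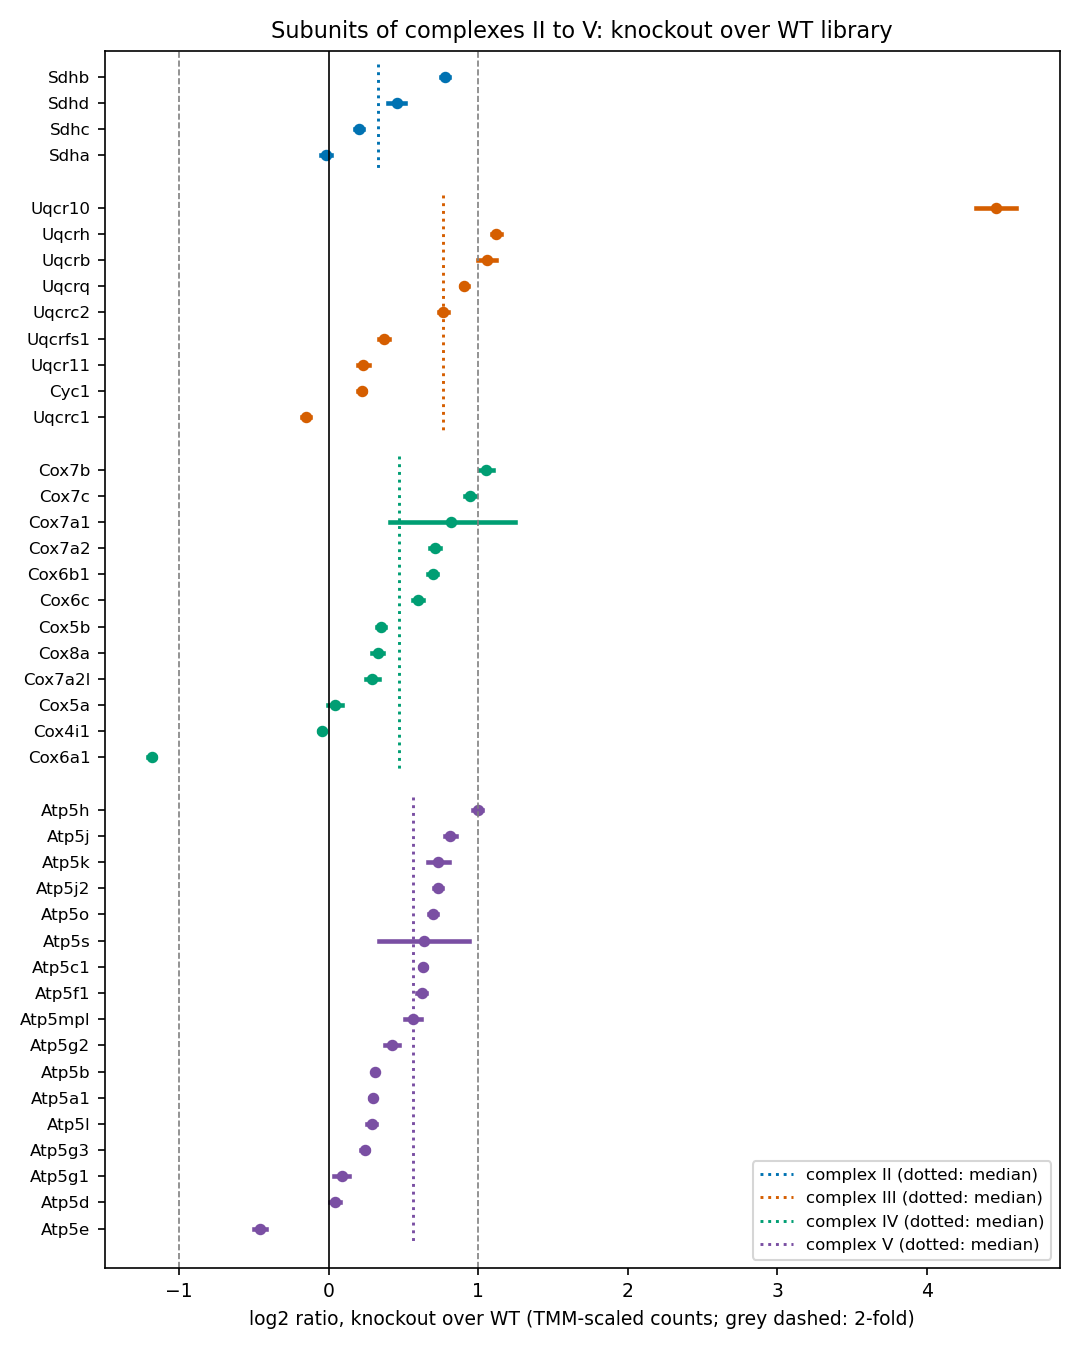
Log2 ratio of the knockout over the WT library for each of the 42 subunit genes compared, ordered within complexes II to V (points; bars are exact 95% counting intervals, dotted lines are the medians of each complex, grey dashed lines mark 2-fold). Most points lie between 0 and 1, with Uqcr10 at 4.46 and Cox6a1 at -1.18 apart from the rest.

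In complex II the ratios stepped from the iron-sulfur subunit down to the flavoprotein. Sdhb, which carries the iron-sulfur clusters, had 20257 WT and 32680 knockout counts (log2 ratio 0.78, interval 0.75 to 0.80). The membrane anchors that hold the ubiquinone site followed, Sdhd with 4330 and 5591 counts (0.45) and Sdhc with 21109 and 22862 (0.20). Sdha, the flavoprotein that oxidises succinate, had 15426 and 14356 counts and a log2 ratio of -0.02 (interval -0.05 to 0.01). Only Sdhb was past 1.5-fold, so the 4 subunits of the enzyme did not differ by a common amount. Their median was 0.33 and their summed counts stood 1.31-fold higher in the knockout library.

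Complex III had the highest median of the 4 complexes, 0.77, and 8 of its 9 members were above 0, as were 49.2% of all genes compared. The proteins that carry electrons differed little: Cyc1, which encodes cytochrome c1, had 25708 and 28215 counts (0.22), and Uqcrfs1, the Rieske iron-sulfur protein, had 13420 and 16317 (0.37). The large matrix core proteins parted, although they pair in the complex. Uqcrc2 had 14400 and 23087 counts (log2 ratio 0.77, interval 0.74 to 0.80), and Uqcrc1 had 24575 and 20833 (-0.15, interval -0.18 to -0.13).

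The 4 highest ratios of complex III were those of small supernumerary subunits. Uqcrh, the acidic hinge protein near the docking site of cytochrome c, had 11034 and 22623 counts (log2 ratio 1.12, interval 1.09 to 1.15). Uqcrb, a ubiquinone-binding subunit, had 3580 and 7023 counts (1.06, interval 1.00 to 1.12), and Uqcrq had 25053 and 44230 (0.91). Of the small subunits Uqcr11 moved least, with 9998 and 11061 counts (0.23). All 5 small subunits were above 0, as were 49.2% of all genes compared, and the median of these 5 was 1.06.

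Uqcr10 was the member farthest from the rest. This small subunit (ENSMUSG00000059534, GRCm38 chromosome 11 from 4701973 to 4704342, minus strand) had 466 WT counts and 9667 knockout counts (log2 ratio 4.46, interval 4.33 to 4.60). Per kilobase of transcript its level in the WT library was 16.2 CPM, the lowest of the 9 complex III members and 0.0722 times their median level. In the knockout library it was 357 CPM per kilobase, rank 4 of 9 and 1.20 times the median level. The WT value was thus the one far from the other subunits of the complex. Its coding transcript has 2 exons and no near-identical copy was found among the annotated transcripts. Of all compared genes with 3 exons, the number that the longest model of Uqcr10 has, 2.47% differed by at least 16-fold in either direction. The share was 19.9% with 1 or 2 exons, 2.13% with 4, 0.526% with 5 to 9 and 0.282% with 10 or more. The part of exon number in this difference was not tested. Whether the 466 WT counts give the RNA level or a shortfall in how reads of this gene were counted in that library was not tested either, so the ratio of 4.46 is uncertain. Without Uqcr10 the complex III median was 0.57.

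In cytochrome c oxidase the member with most WT counts stood lower and most others higher. Its 12 members compared had a median of 0.47, 10 of them above 0, and their summed counts were 1.10-fold higher. The share above 0 over all genes compared was 49.2%. Cox6a1 (ENSMUSG00000041697, chromosome 5 from 115345642 to 115348981) encodes the form of subunit 6A made in liver and most other tissues. Its 54910 counts in WT were the most of the complex, against 22777 after knockout, a 2.27-fold drop (log2 -1.18, counting interval -1.21 to -1.16). Its level per kilobase was 1451 CPM in the WT library, 4.63 times the median of the complex, and 639 CPM in the knockout library, 1.48 times the median. Its WT value lay farther from the other subunits than its knockout value.

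The 2 highest ratios of complex IV were those of Cox7b and Cox7c. Cox7b, on chromosome X, had 6803 and 13314 counts (log2 ratio 1.05, interval 1.01 to 1.10). Cox7c had 11909 and 21615 counts (0.95, interval 0.91 to 0.98). Cox7a2 (12407 and 19126 counts), Cox6b1 (13635 and 20792) and Cox6c (13860 and 19743) lay between 0.60 and 0.71. These 5 were set together by their values and are no structural class, since Cox6a1 and Cox8a are also small ubiquitous subunits around the catalytic core. A pair that joins that core early differed least. Cox4i1, a regulatory subunit with an ATP-binding site, had 45460 and 41469 counts (-0.05), and Cox5a, which binds it, had 7787 and 7565 (0.04, interval -0.002 to 0.09). Cox5b (0.35), Cox8a (0.33) and Cox7a2l (0.29), a factor that joins complexes III and IV into supercomplexes, stood between these groups.

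Tissue-restricted isoforms of complex IV were at or near 0. Cox6a2 and Cox8b, the forms of heart and skeletal muscle, were listed at 0 in both libraries, as were Cox7b2 and Cox8c, which are known from testis. Cox4i2, a form of lung, had 8 and 4 counts, and Cox6b2 had 29 and 11. Cox7a1, the muscle form of subunit 7A, had 78 and 130 counts (log2 ratio 0.82, interval 0.41 to 1.25). Its level was 2.99 and 5.29 CPM per kilobase, far below the 284 and 465 of Cox7a2. The second Atp5o row was also at 0 in both libraries, which completes the 7 members not compared. Cox6b2 with a mean of 20 counts was the nearest below the limit of 50, and Cox7a1 with a mean of 104 the nearest above it.

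**Figure D2:**
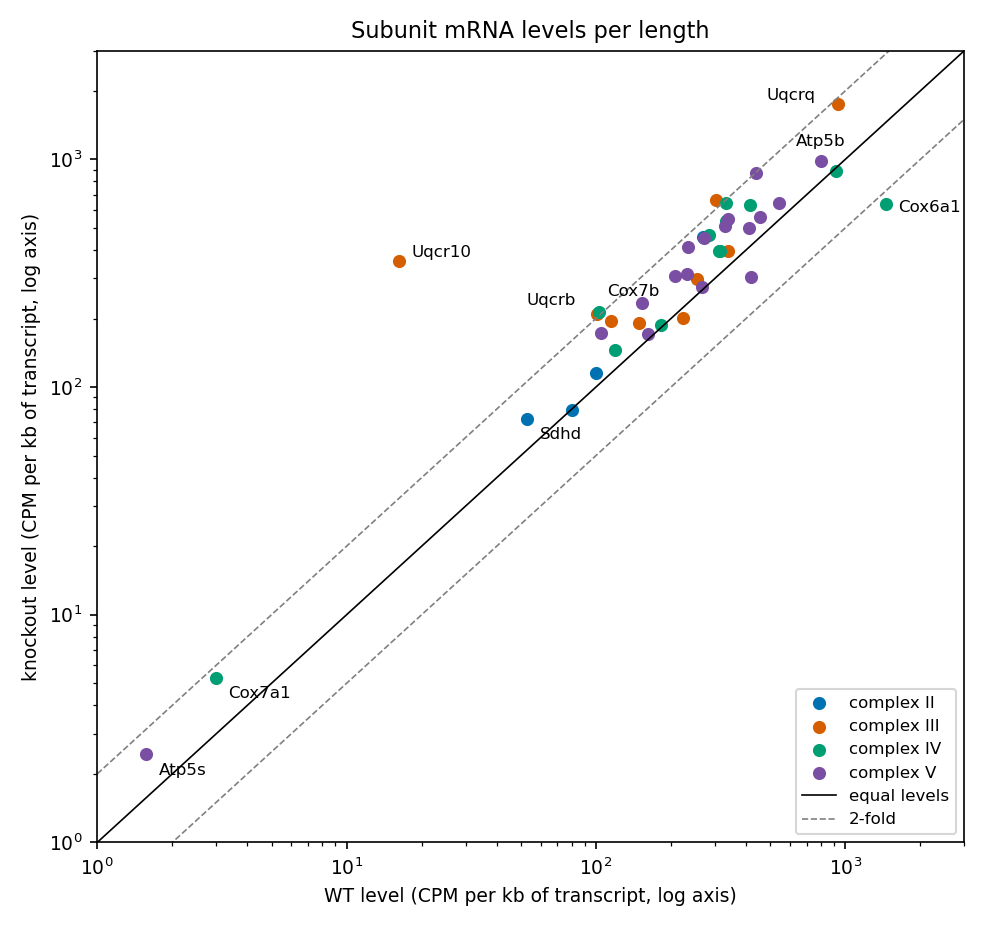
Level of each of the 42 subunit genes in the WT library (x axis) and the knockout library (y axis), in CPM per kilobase of transcript on log axes; the solid line marks equal levels and the dashed lines 2-fold. Uqcr10 lies far above the upper dashed line at 16.2 and 357, Cox6a1 below the lower one, and Cox7a1 and Atp5s at the low end.

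ATP synthase held 17 of the members compared, of which 16 were above 0 and none reached 2-fold, with a median of 0.56. The shares over all genes compared were 49.2% above 0, 8.45% higher by 2-fold and 8.61% lower. The rotary head that makes ATP differed little. Atp5b, its catalytic subunit, had 101145 and 118092 counts (log2 ratio 0.31), and Atp5a1, the alternating partner, had 74764 and 86335 (0.29). These were the members with most counts in both libraries, and their ratios were nearly equal.

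In the central stalk, which turns inside the head, the ratios spread widely. Atp5c1, the long shaft, had 25395 and 37043 counts (log2 ratio 0.63), Atp5d had 16477 and 15982 (0.04), and Atp5e, the smallest subunit of the stalk, had 11709 and 8035 (-0.46, interval -0.50 to -0.42). Atp5e was the only ATP synthase member below 0. The ring of c subunits that rotates in the membrane is made from 3 genes whose mature proteins are the same. Atp5g3, the most abundant, had 25721 and 28636 counts (0.24), Atp5g2 had 6808 and 8613 (0.42), and Atp5g1 had 6370 and 6369 (0.09, interval 0.03 to 0.14). None of these paralogs matched another at 95% identity over 50% of its transcript, but Atp5g1 and Atp5g2 matched processed pseudogenes. Reads shared with those copies, or over shorter stretches among the paralogs, can be split or dropped, so the separate ratios are uncertain.

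The peripheral stalk is the stator that keeps the head from turning with the ring. All 4 of its genes compared were higher by at least 1.5-fold, as were 19.0% of all genes. With the GC trend removed Atp5f1 came down to 0.25, below that limit, and the other 3 stayed past it. Atp5h had 14138 and 26577 counts (log2 ratio 1.00, interval 0.97 to 1.03) and lay just under the 2-fold limit. Atp5j had 10536 and 17443 counts (0.81), Atp5o 18875 and 28785 (0.69), and Atp5f1 16232 and 23545 (0.62). The supernumerary subunits of the membrane domain followed, with Atp5k at 0.73 (2568 and 4021 counts), Atp5j2 at 0.73, Atp5mpl at 0.56 and Atp5l at 0.29. Medians of the log2 ratio were thus 0.75 for the peripheral stalk and 0.65 for the membrane subunits, against 0.30 for the head and 0.24 for the c ring. With 2 to 4 genes in each of these groups, their order is a description only. Atp5s, which carries the name but is not a subunit of the enzyme, had 155 and 227 counts (0.63, interval 0.33 to 0.94).

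GC content moved with the ratio, among the members and among all genes. Across the 42 members Spearman's rho between GC content and the log2 ratio was -0.41, and across 12059 genes compared it was -0.33. These are relations across genes of the same 2 libraries. The 14 members of lowest GC (41.3% to 48.7%) had a median log2 ratio of 0.63 and all genes in that span one of 0.24. The middle 14 had a median of 0.66 against -0.07, and the 14 of highest GC (53.9% to 61.4%) one of 0.23 against -0.25. In each span the members' median thus stood above that of all genes of like GC. With the trend of all genes removed, the members' median was 0.47 and that of all genes -0.04. After this step 7.19% of all genes were higher by 2-fold and 8.5% lower. Of the members 4 were higher and 0 lower, but the names past 2-fold changed. Uqcrb (0.62) and Cox7b (0.64) came back within 2-fold above and Cox6a1 (-0.93) below, Atp5h stood at 0.92 and Cox7c at 0.72, and Uqcrq (1.02) and Cox7a1 (1.00) passed the limit. Uqcr10 (4.60) and Uqcrh (1.02) stayed past it. Cox4i1, Cox5a and Uqcrc1, all near 0, changed sign.

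**Figure D3:**
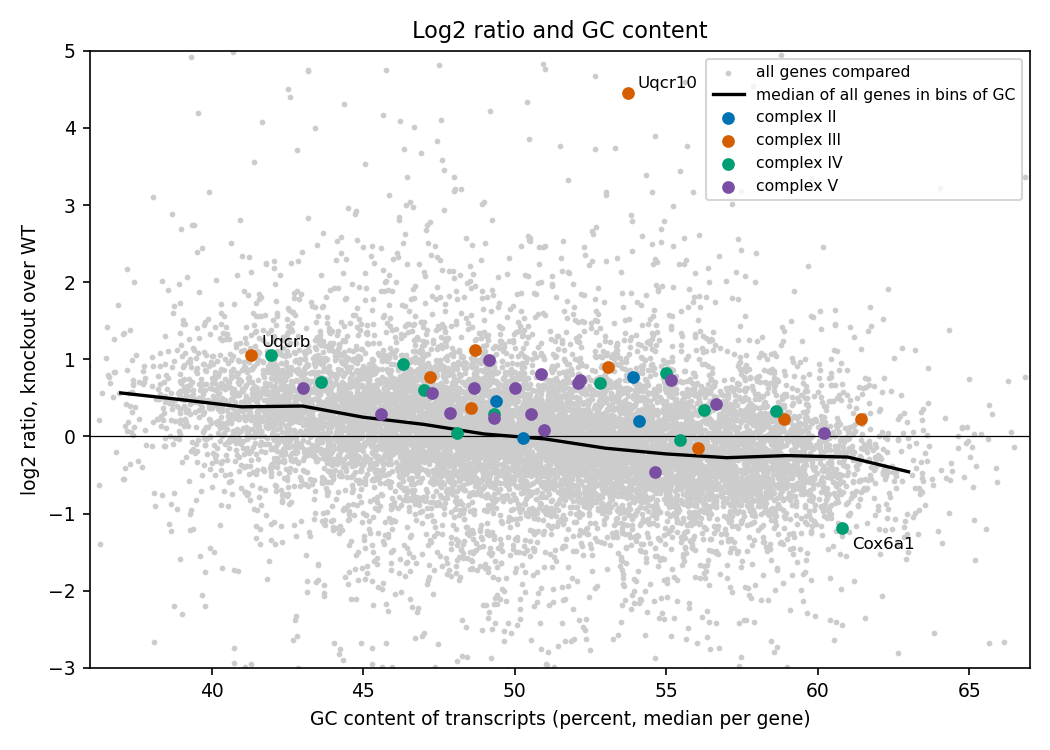
Log2 ratio of the knockout over the WT library (y axis) against GC content of each gene's transcripts (x axis, percent) for all genes compared (grey; points beyond the axes are not drawn) and the members by complex (colours); the black line joins medians of all genes in bins of GC content. The black line falls as GC content rises and most coloured points lie above it.

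Members with few exons were the most spread. The 10 members with 2 or 3 exons ran from -1.18 to 4.46 (median 0.35), and 3 of them were past 2-fold. The 21 with 4 to 6 exons ran from -0.05 to 1.12 (median 0.56), with 2 past 2-fold, and the 11 with 7 or more from -0.15 to 1.00 (median 0.62), with none. Over all genes compared, 28.2% with 3 exons and 12.3% with 10 or more differed by at least 2-fold, and 39.5% with 1 or 2, 20.9% with 4 and 16.4% with 5 to 9 exons did (17.1% of all genes). Uqcr10, Cox6a1 and Cox7b have 3 exons in their longest model, and the part of exon number in their ratios was not tested.

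Assembly factors, which build the complexes without staying in them, gave a lower median than the subunits, a difference that was not tested. Of 39 such genes 38 were compared, 24 of them above 0, 5 higher and 2 lower by at least 2-fold, with a median log2 ratio of 0.21. The shares over all genes compared were 49.2% above 0, 8.45% higher and 8.61% lower. Factors for complex III had a median of -0.15, with Uqcc3 highest (0.37) and the chaperone Bcs1l, which inserts the Rieske protein, lowest (-0.53). Factors for complex IV gave 23 values with a median of 0.24. Coa7 (398 and 1989 counts, 2.41) stood highest, Cox17, a copper chaperone, was at 1.01, and Coa3 (6522 and 2556 counts) was at -1.27. Coa4, with 2 exons, had 613 WT counts and 1 knockout count (log2 ratio -8.60, interval -14.5 to -6.69). Pet117, with 0 and 3 counts, was the gene not compared.

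Few genes made up the lists for complexes II and V. Sdhaf1, which has 1 exon, was listed at 0 in WT and had 2245 counts after knockout, so no fold is given. Sdhaf3 stood at 1.21, Sdhaf2 at -0.24 and Sdhaf4 at -0.54. Atpif1, the inhibitor that stops ATP synthase from running backwards, had 933 and 1803 counts (1.04, interval 0.92 to 1.15), and Atpaf2, a chaperone of the head, was lowest of its list at -0.53.

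The gene lists for ubiquinone synthesis and cytochrome c and for the pathways around the chain showed smaller medians than the subunits, although cytochrome c itself did not stand low. For the counts below, 49.2% of all genes compared were above 0, 8.45% higher by 2-fold and 8.61% lower. Cytochrome c (Cycs) had 9288 and 15283 counts (log2 ratio 0.80) and was the highest of 13 genes for cytochrome c and ubiquinone synthesis, whose median was 0.16, with Coq4 lowest (-0.40) and 0 past 2-fold. The citric acid cycle had a median of 0.07 over 13 genes, none higher and 1 lower by 2-fold, from Dld at 0.50 to Suclg2 (9628 and 3094 counts) at -1.55. Genes for protein import and mitochondrial DNA upkeep had a median of 0.26 over 20 genes, from the chaperone Hspa9 at 1.15 to Timm23 at -0.95. Of 10 genes compared from a list of nuclear regulators 4 were above 0 (Sirt3, Tfam, Lrpprc and Yy1), with a median of -0.12. That list is mixed, since it holds Sirt3 and also Tfam (0.60), which the list for import and mitochondrial DNA upkeep shares. Its count and median are thus not those of nuclear factors alone. Sirt3, a mitochondrial deacetylase, was highest (0.75), and Ppargc1a, a coactivator of respiratory genes, was lowest with 130 and 58 counts (-1.07, interval -1.55 to -0.62). The genes of the factors named with the promoters did not share a direction. Gabpa, which encodes the ETS factor, had 635 and 436 counts (-0.46), Nrf1 was at -0.20, Esrra at -0.04 and Yy1 at 0.26. Gabpa overlaps Atp5j on the opposite strand, so reads of their shared stretch cannot be told apart if strand was not used in counting. The same holds for other members, such as Cox4i1 with Emc8 (2075 and 1627 counts) and Atp5f1 with Wdr77 (911 and 485).

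**Figure D4:**
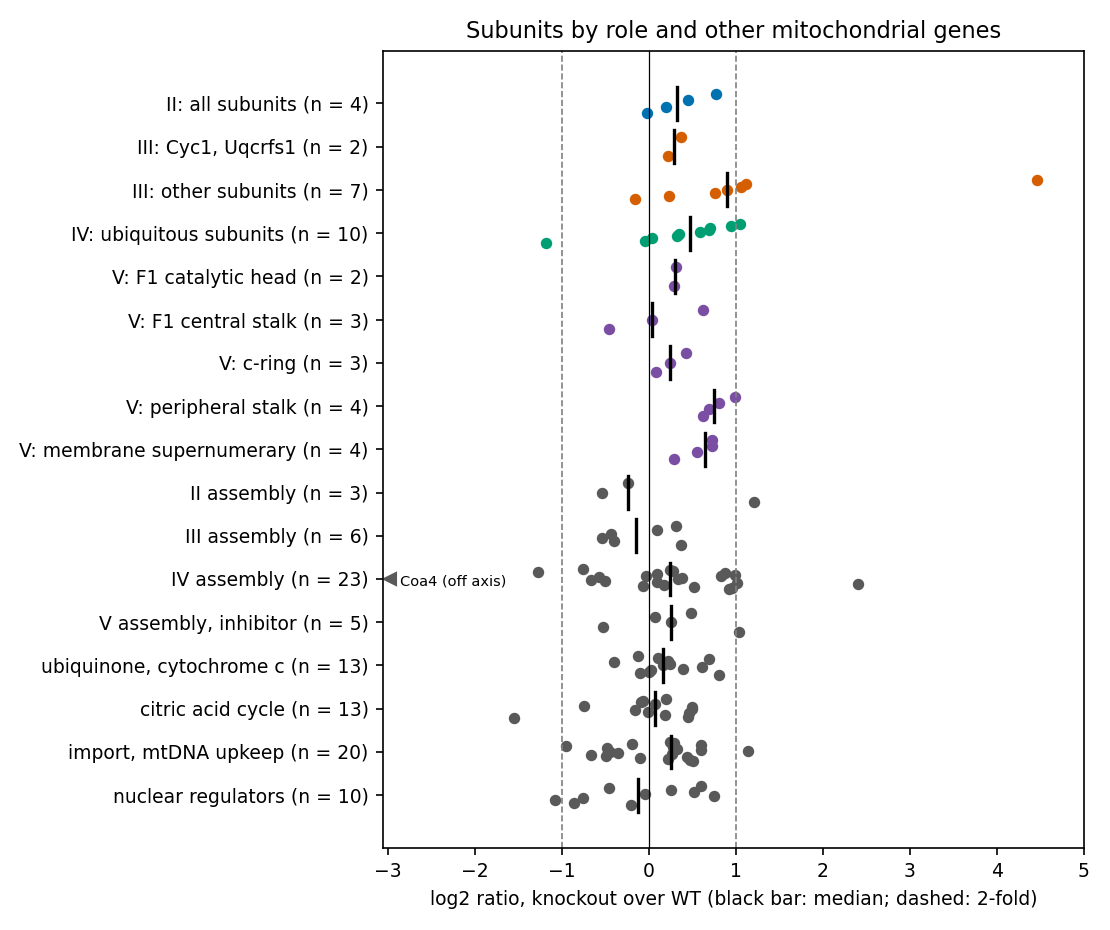
Log2 ratio of the knockout over the WT library (x axis) for subunits by complex and role (colours) and for other mitochondrial gene lists (grey), 1 point per gene with counts in both libraries; black bars are medians and dashed lines 2-fold. Peripheral stalk genes lie to the right of the head and c ring of complex V, Uqcr10 lies alone at 4.46, assembly factors straddle 0, and Coa4 at -8.60 is drawn as an arrow; Sdhaf1, at 0 in the WT library, and Cox7a1, Cox7a2l and Atp5s are not drawn.

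The partner subunits encoded by mitochondrial DNA could not be compared in these counts. Of 6 such genes for complexes III to V, mt-Co2, mt-Co3, mt-Atp6 and mt-Atp8 were listed at 0 in both libraries, and mt-Co1 had 6989 WT counts and was listed at 0 in the knockout. Only mt-Cytb, the cytochrome b of complex III, had counts in both, 255139 and 376551 (log2 ratio 0.65, and 0.14 with the GC trend removed). All liver cells use these genes, so a 0 here does not show that the RNA was absent.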

How the data were processed

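The authors deposited a table of raw counts for each library, with Ensembl IDs, per the file headers. Trizol RNA and a SMARTER mRNA-Seq kit were used, per the labels' protocols. Build GRCm38 (mm10) is named in the submitters' processing notes, while the aligner, counter, strand use and handling of multiply mapped reads are not given in the sources used here. Of 55421 genes, 55154 had an entry in GENCODE M21. Totals were scaled with TMM factors (edgeR 4.0.16 in R 4.3.3; 1.02 for WT, 0.982 for the knockout). Before log2 ratios, 0.5 was added to each count in proportion to library size. Intervals are exact Clopper-Pearson ones, and since PCR reads without molecular identifiers are not independent, they cover counting error only. No tool tested genotype. Levels per kilobase use the shortest APPRIS principal transcript, GC content the median over transcripts, and exon number the transcript with most exons. The GC trend is a lowess fit (statsmodels 0.14.6, fraction 0.3). Near-identical copies were BLAST 2.17.0 matches of at least 95% identity over at least 50% of a transcript. The ratios, intervals and GC step were tested on simulated data. Members, gene lists and alternatives were chosen with earlier results of these data known. The naming rule took members past 2-fold, Uqcrb, Atp5h and Cox7c, the highest and lowest member of each complex, paralog sets, core subunits, and the highest and lowest gene of each other list. Remaining members, Cox17, Coa3, Sdhaf2, Sdhaf3, Gabpa, Nrf1, Esrra, Yy1, Tfam, Lrpprc, Emc8, Wdr77 and the genes at or near 0 were named after their values were seen.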

Additional observations from a re-analysis of the deposited data

How the results depend on the processing

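DESeq2 1.42.0 size factors and 5 added reads left all 42 members on their side of 0 and of 2-fold. The median over all members stayed between 0.44 and 0.56 under every setting run. Adding the counts of pseudogenes named for a member changed only Atp5k (0.732 to 0.730). Copies with other names were not added, so that step cannot show what copies do to the other members. Total-count scaling gave medians of 0.28 (complex II) and 0.72 (complex III), moved the median of all genes to -0.06 and put Atp5d and Cox5a below 0. It also put 35 of the 42 members outside their own counting intervals. With the GC trend removed, medians were 0.37 (complex II), 0.59 (complex III), 0.48 (complex IV) and 0.39 (complex V). By this measure 0 members were lower by 2-fold, where 8.5% of all genes were. The GC step put 37 of the 42 members outside their own counting intervals. Members with at least 3 exons gave 0.84 for complex III, and the mean in place of the median 1.00. Complex IV had 0.35 at a minimum of 500 counts and 0.34 without a level filter, where 2 members (Cox6a1 and Cox6b2) were lower by 2-fold. Leaving out single members was chosen after seeing the data: complex III had 0.57 without Uqcr10, and complex IV 0.60 without Cox6a1, with 0 members lower by 2-fold. At a limit of 1.5-fold 20 members were higher, and at 4-fold 1 was higher and 0 lower. Depth limits Cox7a1 and Atp5s, the members with fewest counts. No paired analysis was possible because each genotype has 1 library.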

Other observations

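Other large assemblies gave these values in the same 2 libraries, which were not tested against the members. Of all genes compared, 49.2% were above 0, 8.45% were higher by at least 2-fold and 8.61% were lower. The 37 nuclear-encoded subunits of complex I had a median log2 ratio of 0.46, with 32 above 0, 6 higher by at least 2-fold and 0 lower. The 76 mitochondrial ribosomal proteins compared had a median of 0.34, with 55 above 0, 6 higher and 3 lower. The 76 cytosolic ribosomal proteins had a median of 0.64, with 73 above 0, 9 higher and 0 lower, so a median above 0 was shared by these 3 groups and the members.

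Near-identical copies among annotated transcripts were found for 9 of the 42 members compared. The copies of Uqcrb, all processed pseudogenes, were 3 in number and had 0 counts in both libraries. So had the 2 copies of Atp5g2, which are 100% identical over 100% of its transcript. Handling of multiply mapped reads is not given, so a copy at 0 does not show that the member lost no reads. The 4 copies of Atp5h held 4 and 0 counts together, and the 9 of Atp5l held 8 and 6. The largest value was for the Atp5o row compared, whose copy Gm5436, a processed pseudogene, held 317 and 305 counts. The gene itself had 18875 and 28785. Donson, a protein-coding gene with 80 and 25 counts, matched the second Atp5o row, which it overlaps on the same strand.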
